A study of Mus musculus with 50 samples.

Results

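The step from the late 1-cell stage (late 1C) to the early 2-cell stage (early 2C) was followed in uninjected mouse embryos by comparing 6 libraries of each stage across all genes. These are 12 of the 50 libraries of a study of Duxbl, a double homeobox protein, and the exit from totipotency. The embryos were wild-type C57BL6/J, from females 3 to 12 weeks old that received 7.5 IU of gonadotropins, and were collected 28 to 30 h (late 1C) or 32 h (early 2C) after human chorionic gonadotropin (hCG), the hormone that triggers ovulation. A further 12 libraries of the same 2 stages came from embryos injected with 200 ng/µl of mRNA for the fluorescent protein mCherry, 6 per stage. They share no library with the uninjected embryos and show how the same genes behaved in other samples. Late 2-cell (late 2C) embryos were collected 48 h after hCG, and other embryos were injected with 200 ng/µl of Duxbl mRNA. Both enter only a fit of all 9 groups, apart from late 2C values of uninjected and mCherry embryos given where stated. Every tube held 5 pooled embryos, so a library averages over embryos, and nothing in the labels says that tubes of 1 stage came from separate litters. The p-values below therefore measure the spread between tubes.

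At fertilisation the mouse embryo carries RNA made in the oocyte and is almost silent in transcription. A first wave of weak, permissive transcription (minor genome activation) starts before the first division, and a larger wave (major activation) follows in the 2-cell embryo, while maternal RNA is cleared. Zscan4 genes, Eif1a-like genes, Usp17l deubiquitinases and Zfp352 are among the transcripts best known for appearing at the 2-cell stage, many of them as families of near-identical copies.

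The deposited table holds 1 scaled value per gene and library, and summed to 22.5 to 26.3 M (late 1C) and 24.2 to 26.0 M (early 2C) per library (M for 1e6). CPM here is the deposited value per 1e6 of the normalised library total, so a change is a change in share of the measured RNA and cannot be told apart from a change in the amount per embryo. The cDNA kit primes on poly(A) tails, so the values report polyadenylated RNA. A gene was tested when its deposited value was at least 10 in at least 6 of the 12 libraries, and was called at a limma adjusted p under 0.05. Log2 changes are early 2C minus late 1C of log2(CPM + 1), which understates the change of low genes. Libraries of 1 stage correlated at 0.956 to 0.980 (late 1C) and 0.934 to 0.979 (early 2C), and pairs across stages at 0.894 to 0.974, over log2 values of the genes tested. The early 2C libraries numbered 4 and 5 stood apart on the first principal component, which held 32.8% of the variance, and the late 1C libraries 4 and 5 were the lowest on the second, at -34.5 and -44.7 against -10.4 to 6.78. The main counts below are also given without the libraries of those numbers.

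Of 18323 genes tested, 542 were called higher at early 2C (2.96%) and 1010 lower (5.51%), 8.47% in all. At an unadjusted p under 0.05 there were 3951 genes, where chance gives 916. The 6 values of each stage did not overlap for 988 genes (5.39%), among them 272 of those called higher and 611 of those called lower. Without the libraries numbered 4 and 5 the counts were 345 higher (1.88%) and 656 lower (3.58%), and in a fit of all 9 groups 327 (1.14%) and 491 (1.7%) of 28808. Of the 1552 calls, 880 were also called in the same direction without those libraries and 770 in the fit of all groups. The median change over all genes tested was 0.00, so the calls lie on both sides of it.

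The genes called higher had lower levels at late 1C than those called lower. Those called higher had a median of 1.41 CPM at late 1C and 8.36 CPM at early 2C, and 244 of the 542 averaged under 1 CPM at late 1C. A further 138 averaged at least 10 CPM there. Those called lower had a median of 54.0 CPM at late 1C and 28.3 CPM at early 2C, and 897 of the 1010 averaged at least 10 CPM at late 1C. Over all 18323 genes tested the medians were 8.42 and 8.25 CPM. At late 1C 3110 of them averaged under 1 CPM and 8674 at least 10 CPM. The filter and the log2(CPM + 1) scale favour this split. A gene near 0 CPM at late 1C has no room to fall and passes only through early 2C. Such genes are part of the 5.51% called lower that serves below as the base for lists. Of the 8674 genes with at least 10 CPM at late 1C, 897 were called lower, a larger share. The lists were not matched for level. A change of at least 2-fold was reached by 340 of the higher and 377 of the lower genes. In sum, the genes called higher went from 1.86% to 3.11% of CPM, and those called lower from 11.1% to 6.23%. The plot of change against level shows both groups.

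**Figure D1:**
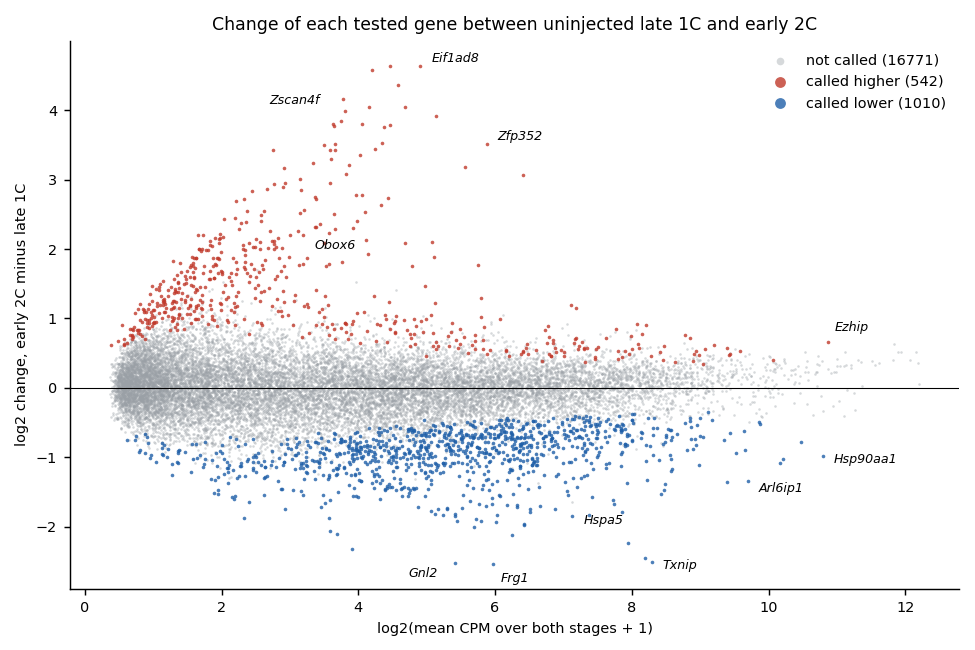
Log2 change from late 1C to early 2C (vertical axis) against log2 of the mean CPM over both stages plus 1 (horizontal axis) for each of the 18323 genes tested, 1 point per gene. The 542 genes called higher (red) reach changes above 4 at the left, and the 1010 called lower (blue) reach -2.53 (Frg1) and extend to the highest levels.

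The upstream sequences of 4 genes are shown for the motif matches they hold: 2 genes among the largest rises, and 2 ER chaperone genes that were lower. They are the 250 bases before the annotated start, 5′ to 3′ on the gene's strand, from RefSeq on GRCm38.p6, an older build than the mm39 coordinates used for the genes elsewhere. Of 142 genes named by the rules used here, 103 had an entry. Zscan4f lies at chr7:11397665-11397914 (plus strand), with a TATA box (TATAAA) in capitals. Zfp352 lies at chr4:90218570-90218819 (plus strand), with each match to GGATTA, the core that Obox-type homeodomains prefer, in capitals as its reverse complement. Hspa5 lies at chr2:34771840-34772089 (plus strand) and Hsp90b1 at chr10:86705445-86705694 (minus strand), with the outer letters of the ER stress element in capitals, the composite site of CCAAT and CCACG through which unfolded protein in the endoplasmic reticulum (ER) is known to raise transcription.
Zscan4f: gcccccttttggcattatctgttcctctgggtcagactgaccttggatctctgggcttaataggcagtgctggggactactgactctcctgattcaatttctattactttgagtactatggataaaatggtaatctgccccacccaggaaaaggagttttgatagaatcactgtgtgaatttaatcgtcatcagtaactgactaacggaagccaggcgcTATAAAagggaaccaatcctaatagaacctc
Zfp352: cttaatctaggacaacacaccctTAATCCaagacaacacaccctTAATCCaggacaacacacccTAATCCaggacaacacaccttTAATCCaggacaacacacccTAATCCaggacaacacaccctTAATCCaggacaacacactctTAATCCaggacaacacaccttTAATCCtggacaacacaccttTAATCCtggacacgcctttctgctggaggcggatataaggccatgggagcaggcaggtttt
Hspa5: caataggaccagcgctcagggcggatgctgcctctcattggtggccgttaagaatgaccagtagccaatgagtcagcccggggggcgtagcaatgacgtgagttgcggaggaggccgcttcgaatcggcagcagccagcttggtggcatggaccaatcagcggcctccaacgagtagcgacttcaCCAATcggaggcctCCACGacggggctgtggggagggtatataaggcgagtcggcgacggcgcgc
Hsp90b1: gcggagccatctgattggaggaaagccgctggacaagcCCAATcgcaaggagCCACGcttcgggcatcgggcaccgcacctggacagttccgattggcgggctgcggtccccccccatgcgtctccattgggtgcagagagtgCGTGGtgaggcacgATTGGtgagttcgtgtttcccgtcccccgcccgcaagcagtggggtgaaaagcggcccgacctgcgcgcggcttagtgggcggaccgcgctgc

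The TATA box of Zscan4f begins 31 bases before the start, and 14.2% of all 27025 promoters in the table (250 bases before to 50 after the start) hold one on either strand. In Zfp352 the window holds 9 matches to GGATTA, all on the minus strand, from 227 to 61 bases before the start and spaced by 20 or 21 bases in a tandem repeat. At least 1 such match is found in 7.16% of all promoters. The ER stress element of Hspa5 begins 65 bases before the start, and Hsp90b1 holds 2, at 212 bases on the plus and 107 bases on the minus strand of the gene. These matches describe letters in the window, not bound sites.

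The 2-cell-stage transcripts were the list with the greatest share of members called. Of 41 members tested, of 48 in the list, 33 were called higher and 2 lower, with a median change of 2.56, against 2.96% higher and a median of 0.00 over all genes tested. With libraries 4 and 5 of both stages left out, 28 were higher and 1 lower. In mCherry embryos 30 of 40 tested were higher and 3 lower, with a median of 1.98. The members that stood lower were Arg2, an arginase, with a change of -0.80, and Sp110, a nuclear body protein, with -0.61. The list was not uniform among later 2-cell genes either: Tdpoz1 and the 3 Trim43 genes were not called, with changes from 0.42 (Trim43c) to 1.07 (Trim43b).

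Zscan4f (ENSMUSG00000070828, mm39 chromosome 7, 11131842 to 11136245, plus strand), of the zinc finger family that marks 2-cell embryos and acts on telomeres, had 0.0395, 0.391 and 1.08 CPM as lowest, median and highest at late 1C, and 3.90, 25.7 and 43.5 CPM at early 2C. The 6 values of each stage did not overlap, and early 2C library 7 was the lowest of its group. The change was 3.98 (SE 0.40, limma adjusted p 8.45e-06), and 2.37 (adjusted p 0.00737) in mCherry embryos. Eif1ad8 (ENSMUSG00000079034, chromosome 12, 87561086 to 87565036, plus strand), a relative of translation initiation factor 1A, had 0.429, 0.790 and 1.59 CPM at late 1C and 8.72, 65.2 and 83.1 CPM at early 2C. Again library 7 was the lowest of the early 2C group and still above every late 1C library. Its change was 4.64 (SE 0.41, limma adjusted p 4.4e-06).

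Zfp352, a zinc finger gene transcribed in 2-cell embryos, had 2.67, 6.67 and 20.1 CPM at late 1C and 24.5, 107 and 220 CPM at early 2C, a change of 3.51 (SE 0.51, limma adjusted p 0.0007). The late 1C libraries were less uniform here than for Zscan4f, with library 5 at the top, but did not reach the lowest early 2C value. Among the 12 largest rises with groups that do not overlap, a condition of the naming rule, 5 were Eif1a-like genes, 3 came from the Zscan4 group, and the others were Zfp353-ps, Pramel17, AF067061 and Zfp352. Such a gene also had to average at least 10 CPM in its higher group. Zfp353-ps, a pseudogene, went from a median of 0.119 to 45.8 CPM, a change of 4.64, and Pramel17 from 0.316 to 15.6 CPM, a change of 3.77. The unnamed gene models Gm6489 (4.37), Gm21542 (4.16) and Gm8607 (3.81) had changes in the same range.

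Because near-identical copies share reads, families were also summed. The Zscan4 sum, over 6 copies, was 18.7 ± 7.33 CPM at late 1C and 289 ± 158 CPM at early 2C (SD, n = 6 each). Eif1a-like genes (Eif1ad, 17 copies) summed to 17.1 ± 4.57 and 399 ± 205 CPM, and the Usp17l deubiquitinases (5 copies) to 19.3 ± 6.70 and 130 ± 70.6 CPM. In each of these 3 families the 6 early 2C values lay above the 6 late 1C values, with log2 differences of 3.64, 4.21 and 2.52. The two-sided exact permutation p was 0.00216 for each, the smallest that 924 splits can give, and 0.00433 adjusted over 6 families. All 5 Zscan4, 15 Eif1ad and 5 Usp17l copies tested were called higher, where 2.96% of all genes tested were. A copy near 0 CPM at late 1C passes the filter only through early 2C, and copies share reads. These counts are therefore no support beyond the sums. In the plot of values by library the early 2C values spread widely, and library 7 was the lowest, with a Zscan4 sum of 42.2 CPM against 188 to 496 CPM in the other 5.

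**Figure D2:**
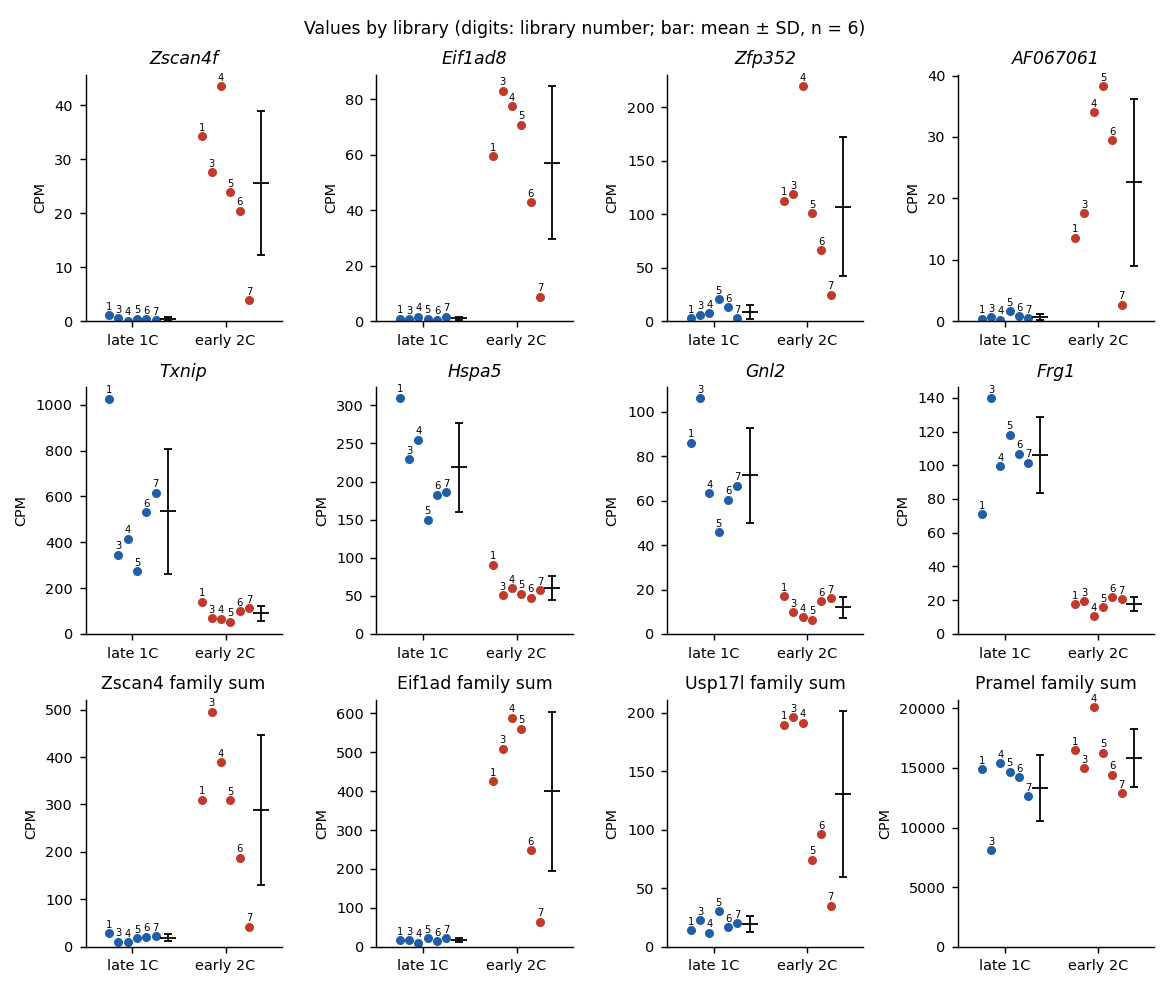
CPM in each of the 12 uninjected libraries for 4 genes that rose (top row), 4 that fell (middle row) and 4 family sums (bottom row), with late 1C in blue and early 2C in red. Digits are library numbers and bars are mean ± SD of 6 libraries; each vertical axis starts at 0. Zscan4f, Eif1ad8, Zfp352 and AF067061 are lowest in library 7 at early 2C, whereas the 4 genes that fell are not set apart there.

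The other families differed in how far they had moved. Tdpoz genes, speckle-type adaptor proteins, summed to 2.19 ± 1.06 and 11.1 ± 9.84 CPM, and 1 of 10 copies passed the filter. The difference of 1.45 had an exact permutation p of 0.0519 (0.0779 adjusted). The PRAME-like family was already abundant at late 1C, with a sum of 13310 ± 2732 CPM (SD, n = 6), and stood at 15850 ± 2449 CPM at early 2C, a difference of 0.27 (exact permutation p 0.128). Within it, 13 of 40 members tested were called higher and 1 lower, with a median of 0.41. These 13 include Pramel41, from a median of 1.30 to 20.6 CPM (change 3.08), and Pramel16, from a mean of 3.91 to 37.2 CPM (change 2.74). The family therefore mixes members already present at late 1C with members that rose from low levels.

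Obox genes, oocyte and early embryo homeobox genes, showed the same mixture on a smaller scale. Their sum was 9800 ± 2066 and 11590 ± 2737 CPM (SD, n = 6 each; exact permutation p 0.294). Late 1C library 3 was low in both sums, at 5877 CPM for Obox and 8090 CPM for Pramel. Of the 7 members Obox3 and Obox6 were called higher. Obox6 went from a median of 3.35 to 19.3 CPM (change 1.79, limma adjusted p 0.00776) and Obox3 from 1.45 to 10.1 CPM (change 1.75, limma adjusted p 0.0167), and the stages overlapped for both. Neither was called with libraries 4 and 5 left out (limma adjusted p 0.0619 and 0.115). At late 2C in uninjected embryos they averaged 1247 ± 614 and 437 ± 236 CPM (SD, n = 6 each).

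Several regions held runs of genes called higher. With gaps of at most 500 kb and at least 5 called genes per run, 8 runs of genes called higher and 14 of genes called lower were found on mm39. The lower run with the most called genes, on chromosome 9, 108167628 to 110214018, held 11 of 59, including 6 Fbxw genes. On chromosome 12, 87526878 to 88290796, 19 of 38 tested genes were called, mostly Eif1a-like genes. On chromosome 13, 120289497 to 120779714, 11 of 15 were called, including Tcstv1, Tcstv3, AF067061 and Gm20767. On chromosome 5, 94084614 to 95576487, 13 of 19 were called, 6 of them Pramel genes. Chromosome 7 held 2 such runs, the Zscan4 cluster at 10528169 to 11348039 with 8 of 16, and the Obox region at 14873471 to 15573603 with 13 of 21. Copies in these runs share reads, so a run is not that many separate events. On chromosome 7, 5.29% of tested genes were called higher, and on chromosome 12 4.99%, where 2.96% of all genes tested were.

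Noncoding genes and pseudogenes were a larger share of the genes called higher than of those called lower. Among protein-coding genes 336 of 13590 were called higher and 926 lower. Among long noncoding RNAs 87 of 2308 (3.77%) were higher and 44 lower, and among unprocessed pseudogenes 32 of 206 (15.5%) were higher and 3 lower. Over all genes tested 2.96% were higher and 5.51% lower. The genes called higher had a median of 3 exons and 24.9% had a single exon, against 8 exons and 7.13% for genes called lower and 5 and 15.6% for all tested (longest transcript in GENCODE M21). Restricted to protein-coding genes, the medians were 4, 9 and 8 exons.

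Regulators of genome activation were called at about the share of all genes, which was 8.47% (2.96% higher and 5.51% lower). Of 31 tested, Gabpa and Hexim1 were called higher and Larp7 lower, with a median change of -0.06 (mean 0.02). Gabpa, the DNA-binding subunit of an ETS factor, had 0.477, 1.93 and 2.61 CPM as lowest, median and highest at late 1C and 6.04, 8.21 and 13.5 CPM at early 2C (change 1.84, limma adjusted p 0.000262). Hexim1, which holds the elongation kinase P-TEFb inactive on 7SK RNA, went from a median of 1.44 to 8.14 CPM (change 1.78), while Larp7, the protein that stabilises 7SK RNA, went from 248.8 to 128 CPM (change -0.85). The stages overlapped for none of the 3. In mCherry embryos 5 of the 31 were lower (Larp7, Nfya, Nfyb, Ccnt1 and Esrrb) and 0 higher by limma, against 3.72% lower over all genes. There Larp7 was called (-0.55), and Gabpa (1.28, limma adjusted p 0.0597) and Hexim1 (0.93, 0.0893) were not.

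Duxf3, the gene of the activator Dux, and Duxbl1 are named here after their values were seen. Duxf3 was at 1.71 ± 1.73 CPM at late 1C and 4.26 ± 1.31 CPM at early 2C (SD, n = 6 each; change 1.12, limma adjusted p 0.0441), with overlapping stages. It was not called in mCherry embryos (0.27) or in the fit of all 9 groups (limma adjusted p 0.0627). Duxbl1 was at 110 ± 25.2 and 178 ± 37.6 CPM (change 0.70, limma adjusted p 0.0142), and was likewise not called in mCherry embryos (0.28) or in the fit of all 9 groups (0.324).

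Of the other genes that rose, 3 of 10 trophectoderm genes were called: Krt18 (1.86), Eomes (1.68) and Krt8 (0.89). Over all genes tested 2.96% were called higher and 5.51% lower. Eomes was at 13.2 CPM in early 2C library 5 and at 1.99 to 4.41 CPM in the others. Its stages overlapped, with late 1C library 5 at 2.35 CPM. Krt8 lost its call in 14 of 21 alternatives, among them the fit of all 9 groups and the omission of libraries 4 and 5. Krt18, an epithelial keratin of the outer lineage, went from a median of 3.57 to 14.6 CPM without overlap. Of 25 p53 targets tested, the cell cycle inhibitor Cdkn1a (1.13), Plk2 (1.32) and Sesn1 (1.59) were higher and 2 were lower. In mCherry embryos 0 of the 25 were called higher by limma and 1 lower, where 1.68% and 3.72% of all genes were. There Cdkn1a, Plk2 and Sesn1 had changes of 0.74, 0.82 and 0.41. Rfpl4b, an oocyte ring finger gene, was the only 1 of 57 maternal oocyte transcripts called higher, from a median of 0.971 to 6.88 CPM (change 2.08). Eif1a itself, the initiation factor that the Eif1ad genes resemble, had a change of 1.48, not called without the libraries numbered 4 and 5.

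Txnip was among the 12 largest falls. This gene (ENSMUSG00000038393, chromosome 3, 96465273 to 96469199, plus strand) encodes the thioredoxin-binding protein that restrains glucose uptake. It had 273, 472 and 1027 CPM as lowest, median and highest at late 1C and 52.6, 83.8 and 140 CPM at early 2C. Library 1 was highest in both groups, and the stages did not overlap. The change was -2.50 (SE 0.29, limma adjusted p 4.91e-05), and -2.24 in mCherry embryos. Its neighbours in function did not follow as a group: of 21 thioredoxin and glucose-responsive genes tested, Txnip and the thioredoxin reductase Txnrd1 (-0.88) were lower, the related arrestin Arrdc3 (0.93) was higher, and the median was -0.02. Arrdc3 lost its call in 12 of 21 alternatives, among them the fit of all 9 groups and the omission of libraries 4 and 5.

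ER chaperones were the list with the next largest share of members lower after ribosome biogenesis. Of 32 tested genes of ER chaperones and the unfolded protein response 11 were called lower and 2 higher, with a median of -0.42, where 5.51% of all genes were lower. With libraries 4 and 5 left out, 9 were lower and 2 higher, with a median of -0.23. Hspa5 (ENSMUSG00000026864, chromosome 2, 34661982 to 34667559, plus strand), the main ER chaperone BiP, had 150, 208 and 310 CPM at late 1C and 47.6, 54.9 and 90.8 CPM at early 2C, with no overlap. The change was -1.85 (SE 0.18, limma adjusted p 7.48e-06). Hsp90b1, the ER form of Hsp90, had 187, 265 and 305 CPM and then 67.1, 73.2 and 129 CPM (change -1.56). The oxidase gene Ero1b (-1.68), the disulphide isomerase genes Pdia3 (-1.30), Pdia6 (-1.21), Pdia4 (-1.10) and P4hb (-1.002), and Dnajc3 (-1.75) were also lower.

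The exceptions in this list were the co-chaperone gene Dnajb9 (0.80), without overlap between stages, and Herpud1 (1.20), at 0.310 ± 0.331 and 2.19 ± 1.39 CPM (SD, n = 6 each). The stages overlapped for Herpud1, and it was called neither in the fit of all 9 groups (limma adjusted p 0.236) nor in mCherry embryos (0.371). The sensor genes Ern1 (-0.69) and Atf6 (-0.68) were called lower, with limma adjusted p of 0.0497 and 0.0428, and neither was called in the fit of all 9 groups. Xbp1, the factor that Ern1 activates, was at 1.02 ± 0.833 and 2.14 ± 2.11 CPM (SD, n = 6 each) and was not called. In mCherry embryos 8 of the 32 were lower and 1 higher, with a median of -0.25. Of 926 protein-coding genes called lower, 744 (80.3%) had a promoter entry, and 7 of these (0.941%) held the ER stress element shown above for Hspa5 and Hsp90b1. Among all protein-coding genes tested, of which 79.6% had an entry, it was found in 21 (0.194%), and over all promoters of the table in 35 of 27025 (0.13%). Those 7 are Hspa5, Hsp90b1, Dnajc3, Ero1b, Pdia6, Calr and Hnrnpa3, the first 6 of them ER proteins. Of 336 protein-coding genes called higher 240 (71.4%) had an entry, too few for the comparison, and 1 of these (0.417%), Xlr3a, held the element.

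Ribosome biogenesis was the list with the most members lower. Of its 75 genes 28 were called lower and 1 higher, with a median of -0.36. Leaving out libraries 4 and 5 gave 23 lower and 0 higher, and in mCherry embryos 26 lower and 1 higher. Frg1 (chromosome 8, 41850496 to 41870111, minus strand), a nucleolar RNA-binding protein, had 70.8, 104 and 140 CPM as lowest, median and highest at late 1C and 10.4, 18.5 and 21.7 CPM at early 2C, a change of -2.53 (SE 0.19, limma adjusted p 8.2e-07). Gnl2, a GTPase of the large subunit, had 45.9, 65.1 and 106 CPM and then 6.40, 12.3 and 17.0 CPM (change -2.52). Dnttip2, of the small subunit processome, changed by -2.44, and Nop58, a core protein of box C/D particles, by -1.70. The stages did not overlap for any of these 4.

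A smaller share of the ribosome's own proteins was called. Of 84 ribosomal protein genes 20 were lower and 1 higher, with a median of -0.23, and 15 and 0 with libraries 4 and 5 left out. In mCherry embryos the count was 11 lower and 2 higher, with a median of -0.02. Rpl13, of the large subunit, had 32.4, 44.7 and 50.04 CPM and then 9.77, 12.01 and 16.8 CPM (change -1.71, limma adjusted p 8.45e-06), and Rpl6 changed by -1.45. Many ribosomal proteins have processed pseudogenes that can share their reads, so single values are uncertain. Of 32 subunits and factors of RNA polymerases I and III 4 were lower and none higher, among them Taf1b (-1.34) and Taf1a (-1.25), of the factor that selects ribosomal RNA promoters. Cd3eap, which encodes a polymerase I subunit, had a change of -2.05 and Rpp38, a subunit of RNase P, -2.002.

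Other parts of gene expression had a minority of members called lower, where 5.51% of all genes were. Of the 8674 genes of at least 10 CPM at late 1C, 897 were called lower. With libraries 4 and 5 left out, 3.58% of all genes were lower. Of 58 splicing factors 10 were lower and 1 higher, and 7 and 0 with libraries 4 and 5 left out. Snrnp70, of the U1 particle, had 53.2, 78.5 and 130 CPM and then 9.36, 22.9 and 29.2 CPM (change -1.89), and the splicing kinase gene Clk1 changed by -2.22. Of 41 translation initiation factors 6 were lower and 2 higher (4 and 0 with libraries 4 and 5 left out), with the eIF3 subunit genes Eif3c (-1.84), Eif3m (-1.81) and Eif3e (-1.32) among the lower. Of 48 genes of RNA polymerase II and general factors 10 were lower and none higher, among them Gtf2f1 (-1.33) and Taf7 (-0.75). That count was 6 without the libraries numbered 4 and 5. Of 19 aminoacyl-tRNA synthetase genes 4 were lower, with Rars at -1.75. With libraries 4 and 5 left out, 2 were lower and 1 higher.

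Mitotic regulators were called lower more often than genes as a whole, though in a minority of members. Genes of at least 10 CPM at late 1C were themselves called lower more often, 897 of 8674. The mitotic genes were not compared with genes of similar level. Of 63 genes of G2/M and mitosis 15 were lower and 2 higher, against 5.51% and 2.96% of all genes, with a median change of -0.01 (mean -0.23). Without the libraries numbered 4 and 5, 14 were lower and 0 higher, against 3.58% lower over all genes. Cdk1, the mitotic kinase, had 110, 126 and 158 CPM and then 39.4, 45.9 and 61.0 CPM (change -1.45, limma adjusted p 7.48e-06), and Fbxo5, the inhibitor of the anaphase-promoting complex, changed by -1.83. The stages did not overlap for either. Wee2, the kinase that restrains Cdk1 in oocytes, had a change of 0.40 (limma adjusted p 0.0354). It lost its call in 12 of 21 alternatives, among them the fit of all 9 groups and the omission of libraries 4 and 5. Of 58 DNA replication genes 10 were lower and 4 higher, with Gins1 at -1.52 and Orc1 at -1.20. Of 29 excision repair genes 3 were lower and 1 higher, and Ercc5, the flap nuclease of nucleotide excision repair, changed by -2.32. Terf1, a telomere-binding protein, changed by -1.96.

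Maternal oocyte transcripts were called lower more often than genes as a whole, though most were not called at this step. They too were not compared with genes of similar level. Of 57 tested 11 were lower and 1 higher, against 5.51% and 2.96% of all genes, with a median change of 0.02 (mean -0.04). Without the libraries numbered 4 and 5 the count was 5 lower, against 3.58% of all genes. Their summed level was 34890 to 58350 CPM at late 1C and 50470 to 73740 CPM at early 2C, and 13460 to 20250 CPM at late 2C. The medians at late 1C and early 2C were 51620 and 53070 CPM. Late 1C library 3 was the lowest, with the next at 48244 CPM. Early 2C library 4 was the highest, with the next at 55555 CPM. Zp3, of the zona pellucida, had 116, 142 and 200 CPM and then 41.1, 61.0 and 77.5 CPM (change -1.25), and Mos, the oocyte kinase, named here after its values were seen, changed by -1.22. Tent5c, a poly(A) polymerase, was among 6 of 43 decay and storage genes called lower (-0.89). The subcortical maternal complex had 1 of 10 members lower, and the 38 genes of DNA methylation and repression had 6 lower, of which 1 was called without the libraries numbered 4 and 5. Dnmt1, the maintenance methyltransferase, had 357, 520 and 656 CPM and then 107, 216 and 256 CPM (change -1.48).

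Among the genes with the highest CPM that were called lower, Hsp90aa1, the cytosolic Hsp90, had 1512, 2430 and 2925 CPM and then 899, 1219 and 1487 CPM (change -0.97). Arl6ip1, an ER-shaping membrane protein, had 954, 1208 and 1309 CPM and then 395, 449 and 624 CPM (change -1.34), Aspm, a spindle pole protein, changed by -1.03 and Ssb, the La protein, by -1.08. The stages did not overlap for these 4 genes. Zfp57, a zinc finger protein that keeps imprints, had 1355, 1802 and 2186 CPM and then 465.1, 1221 and 1372 CPM (change -0.77, limma adjusted p 0.0316). Its stages overlapped, and it lost its call in 8 of 21 alternatives, while in mCherry embryos it was called (-0.98). Genes of similar level that were called higher had smaller changes, from 0.40 (Wee2) to 0.66 (Ezhip), and of these 5 genes Rbpms2 alone was also called in the fit of all 9 groups. The proteasome (11 lower and 2 higher of 41) and oxidative phosphorylation (12 lower and 1 higher of 91) had more lower than higher members, where 5.51% of all genes were lower. Without the libraries numbered 4 and 5 they had 7 and 3 lower, where 3.58% of all genes were. Oxidative phosphorylation was then at about the share of all genes. The plot of lists gives the remaining counts.

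**Figure D3:**
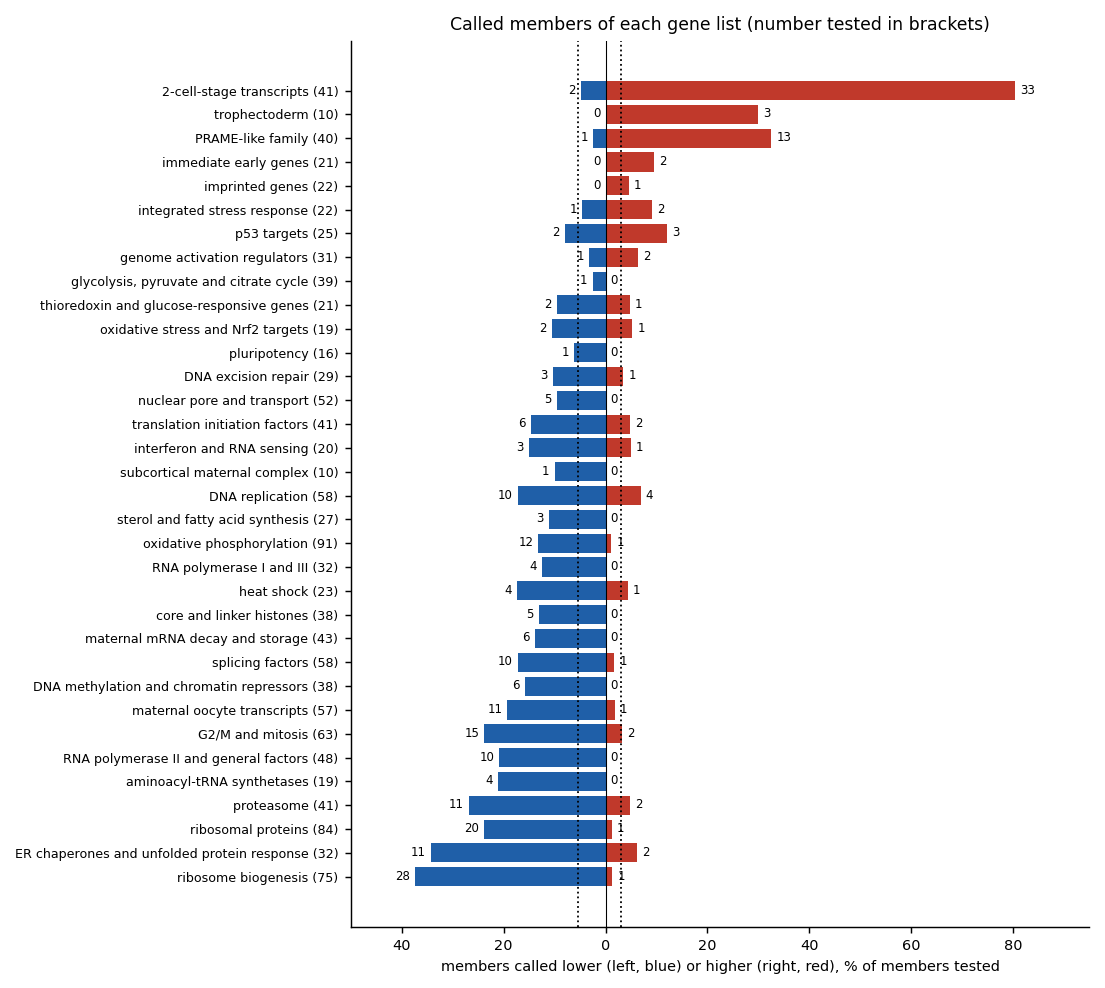
Share of tested members called lower (left, blue) and higher (right, red) at early 2C for each list with at least 10 tested members; digits at the bars are numbers of genes, brackets give the number tested, and dotted lines mark the shares over all genes tested (5.51% and 2.96%). The 2-cell-stage transcripts are at the top with 33 of 41 higher, and ribosome biogenesis at the bottom with 28 of 75 lower.

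Markers of other sources of RNA were also measured, and their part in the results was not tested. The 15 cumulus and granulosa markers summed to 65.8 to 116 CPM at late 1C and 55.1 to 74.8 CPM at early 2C, with 1 lower (Cyp19a1) of 8 tested, and Foxl2, Ptx3, Inhbb and Pgr stayed under 1 CPM in all 12 libraries. The 10 oviduct markers summed to 10.6 to 19.1 and 2.704 to 25.1 CPM with 0 of 4 called, and Foxj1 stayed under 1 CPM. The 12 sperm markers summed to 15.3 to 33.5 and 14.5 to 27.9 CPM with 1 of 4 lower (Akap4), and the protamine gene Prm1 stayed under 1 CPM. The 7 blood markers summed to 3.74 to 9.12 and 6.25 to 19.9 CPM with 0 of 3 called.

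The same step in mCherry embryos was measured in 12 other libraries, which carry the same numbers. The labels do not say whether a number marks a shared litter or day, so the 2 sets may not be independent. There, 308 genes were called higher (1.68%) and 682 lower (3.72%) of 18351, 5.39% in all. Of the 542 genes called higher in uninjected embryos 516 were tested in mCherry embryos, 491 of these (95.2%) changed in the same direction and 189 (36.6%) were called in it. Of the 1010 called lower 1009 were tested, 1003 (99.4%) changed in the same direction and 492 (48.8%) were called. None was called in the opposite direction. The median changes were smaller in mCherry embryos, 0.78 against 1.20 for the higher genes and -0.64 against -0.89 for the lower. The genes were chosen by their calls in uninjected embryos, a choice that favours larger changes there. How much of the difference comes from that choice was not tested. The difference between the 2 stage changes was called for 0 of 21087 genes (0%) by limma, with 768 at an unadjusted p under 0.05 where chance gives 1054, and for 0 with voom weights.

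**Figure D4:**
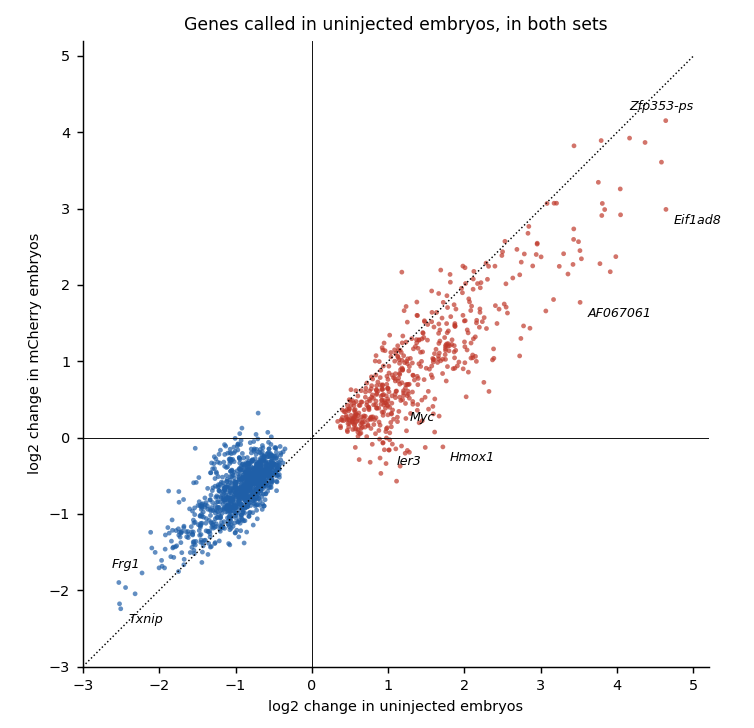
Log2 change from late 1C to early 2C in uninjected embryos (horizontal axis) and mCherry embryos (vertical axis) for each gene called in uninjected embryos and tested in both, red for higher and blue for lower; the dotted line marks equal change. Of the genes shown, 491 of 516 and 1003 of 1009 lie on the same side of 0 in both.

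A few genes called in uninjected embryos did not move in mCherry embryos. Hmox1, the heme oxygenase of oxidative stress, had 0.316, 1.14 and 2.77 CPM and then 3.90, 6.31 and 10.7 CPM (change 1.72, limma adjusted p 0.00186), against -0.12 in mCherry embryos. The immediate early genes Myc (1.61 against 0.07) and Ier3 (1.49 against -0.13) and the keratin gene Krt8 (0.89 against -0.02) behaved alike. The difference was not called for any of these 4 genes (limma adjusted p 1.00 for each), so a difference between the embryo sets is not shown.

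The early 2C libraries differed in their mean levels of the genes that changed, and rises and falls did not keep the same order. Each library was placed by the mean log2 difference from the late 1C mean over genes called in mCherry embryos, a choice of genes that used no uninjected library. For genes that were higher in mCherry embryos, library 7 was at 0.69 and the other 5 at 1.21 to 1.98, with libraries 4 and 5 highest at 1.98 and 1.94. For genes that were lower, library 7 was at -0.70, between library 1 (-0.68) and library 6 (-0.73), and libraries 4 and 5 were again the furthest, at -1.20 and -1.27. Library 7 thus stood apart on the rise and not on the fall. Late 1C libraries were between -0.12 and 0.19 for the first set. Leaving out early 2C library 7 gave 648 higher and 1069 lower genes.

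**Figure D5:**
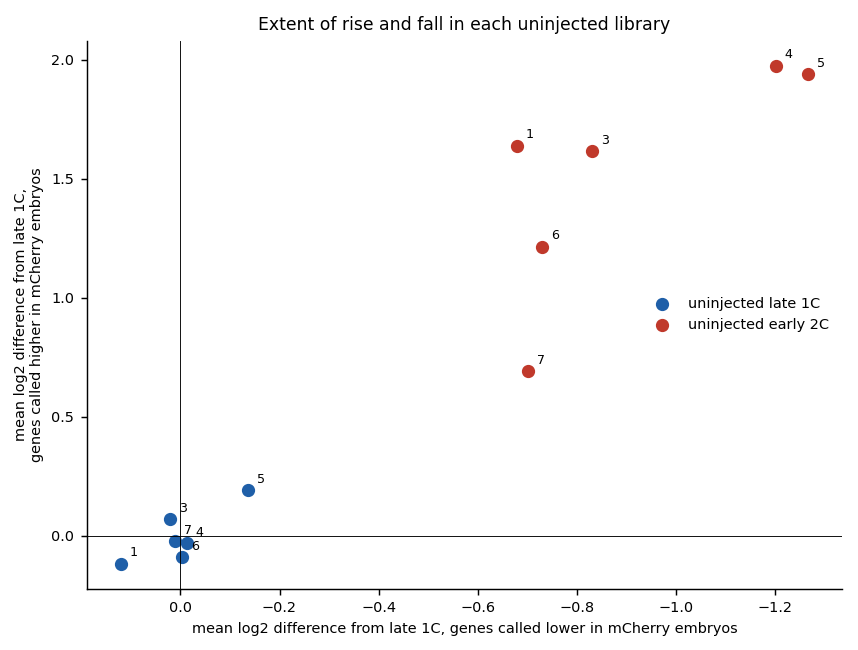
Mean log2 difference of each uninjected library from the late 1C mean, over genes called lower (horizontal axis, reversed) and higher (vertical axis) in mCherry embryos; digits are library numbers. Early 2C libraries (red) spread from 0.69 to 1.98 upward, and libraries 4 and 5 lie furthest to the right.

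What followed was taken from mCherry embryos between early and late 2C, libraries that the uninjected calls did not use. Of 532 genes called higher in uninjected embryos and tested there, 315 (59.2%) rose further and 105 (19.7%) fell. Of all 19938 genes tested at that step 37.7% rose and 35.5% fell, a wider set that includes genes not tested in uninjected embryos. Of 1002 called lower, 337 (33.6%) rose and 421 (42%) fell. Of 15742 genes tested in both comparisons and not called in uninjected embryos, 4755 (30.2%) rose and 6542 (41.6%) fell. The genes called lower were thus close to the uncalled genes in these shares. Among those that turned were Hspa5 (2.08), Cdk1 (2.65), Rpl13 (3.32), Eif3c (3.32) and Nop58 (2.32). Among those that kept falling were Txnip (-1.29), Arl6ip1 (-2.16), Aspm (-2.17) and Dnmt1 (-2.21). In uninjected embryos at late 2C Hspa5 averaged 302 ± 59.8 CPM and Txnip 46.0 ± 16.7 CPM (SD, n = 6 each). Among the genes that had risen, Pramel41 (-1.58) turned down by late 2C, while Eif1ad8 (2.41), Zscan4f (2.47) and AF067061 (4.89) rose again.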

How the data were processed

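Poly(A)-primed cDNA (SMART-Seq v4, Nextera XT, per the labels' protocols) was sequenced from tubes of 5 embryos, and the chemistry does not mark strand. The authors deposited 1 table of 35750 genes and 50 libraries, whose values are a score: whole numbers that behave as read counts scaled between libraries and rounded, since 19 libraries skip whole numbers between 1 and 20. Count models were therefore not used. Trimmomatic 0.39, STAR 2.7.10a, Picard 3.0.0, featureCounts 2.0.4, DESeq2 1.36.0, DESeq and mm39 are named in the submitters' processing notes. No gene's maximum was under 6 and no mitochondrial gene was included.

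Values were scaled by trimmed means of log ratios (trims of 30% and 5%) to CPM, and log2(CPM + 1) was tested two-sided with limma 3.58.1 (trend and robust; statmod 1.5.0, R 4.3.3) in the 12 uninjected libraries, with Benjamini-Hochberg adjustment. Genes needed a deposited value of at least 10 in at least 6 libraries. Family sums were compared by exact permutation. The same fit was made for mCherry embryos, and the difference between the 2 stage changes was tested as an interaction. The code was tested on simulated data.

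Members and the 39 gene lists were chosen with earlier results of these data known. The rule for named genes took Zscan4f, Eif1ad8, Txnip and Hspa5, the 12 largest rises and falls whose stages did not overlap and whose higher stage averaged 10 CPM or more (3 each for Gm and Rik models), the 5 called genes of highest CPM per direction, and, for lists with 2 or more calls, the leading 4 by adjusted p. Other list members were named after their values were seen. Genes whose copies share reads are uncertain singly. Alternatives were the deposited scale, library totals, no filter, pseudocounts of 0.1 and 5, voom weights, a fit of all 9 groups, a replicate block, each library left out in turn and, chosen after seeing the data, omission of the libraries numbered 4 and 5.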

Additional observations from a re-analysis of the deposited data

Results flagged for a closer look

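In groups of 6 libraries a value is listed here when its gap to the nearest other value was too large a part of the group's range by Dixon's test at the 95% level. Of 302 groups examined 35 held such a value, where chance gives about 1 in 20. Late 1C library 3 held 10 of them and early 2C library 4 held 6.

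At early 2C, library 1 had 90.8 CPM of Hspa5, the ER chaperone gene, against 47.6 to 59.8 in the others. Library 4 was high in Wee2 (1576 CPM against 1103 to 1246), Dusp14 (1150 against 671 to 829) and Sesn1 (9.61 against 2.98 to 5.40). It was low in Snrnp70 (9.36 against 22.0 to 29.2). Its deposited total was 25.98 M against 24.24 to 24.86, and its 10 genes with the highest values held 6.15% of the total against 3.64 to 4.46. Library 5 was high in Eomes (13.2 CPM against 1.99 to 4.41) and low in the p53 target Tigar (20.7 against 36.5 to 41.7). Library 6 was high in Cdk1 (61.0 against 39.4 to 47.0). Library 7 was high in 1110059G10Rik (61.4 against 14.1 to 29.4), Atp5h (39.0 against 27.7 to 30.9) and the histone gene H2bc1 (17.3 against 8.29 to 10.6).

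At late 1C, library 3 was low in Aspm (1134 CPM against 1665 to 1713), Ssb (1030 against 1504 to 1773), Taf7 (618.6 against 806.9 to 893.7) and the Obox sum (5877 against 9840 to 11900). Its deposited total was 22.54 M against 25.26 to 26.28. It was high in Taf1b (32.2 CPM against 18.1 to 21.7), Polr3a (97.6 against 55.0 to 69.8), Psmd12 (148.9 against 117.4 to 128.1), Psmd7 (96.6 against 72.2 to 80.3) and Uqcrc2 (173.9 against 110.3 to 126.2). Library 5 was high in Pramel41 (5.48 against 0.597 to 2.01), Pramel31 (3.17 against 0 to 0.915), Eomes (2.35 against 0.0399 to 0.896), Nupr1 (3.75 against 1.05 to 1.501) and Zscan4-ps2 (1.06 against 0 to 0.350), and low in 2310033P09Rik (108.9 against 170.5 to 205.6). Library 6 was high in Zfp353-ps (2.42 against 0.0779 to 0.513). Library 7 was high in Zscan4-ps3 (0.875 against 0.0790 to 0.240) and Ero1b (144.7 against 91.2 to 107.7). Library 1 was high in the interferon factors Irf1 (134.4 against 57.3 to 82.1) and Irf9 (0.918 against 0.0390 to 0.311), and library 4 in H2ac1 (45.1 against 31.6 to 35.7). No explanation of these values was tested.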

How the results depend on the processing

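Of 142 named genes, 106 were called under each of 21 alternatives and 0 reversed. The fit of all 9 groups removed 27 of the calls, and leaving out the libraries numbered 4 and 5 removed 23. In the fit of all 9 groups 327 genes were higher and 491 lower in uninjected embryos, and 157 and 198 in mCherry embryos. Without the libraries numbered 4 and 5 there were 345 and 656 in uninjected embryos. With no filter mCherry embryos had 197 higher and 424 lower, and voom weights gave 197 higher. With the replicate block there were 879 higher and 1492 lower in uninjected embryos, and 592 higher and 1165 lower in mCherry embryos. The same-numbered libraries of the 2 stages correlated at 0.0974 (number 6) to 0.357, with the other 5 pairs at 0.14 or more. The mean of each stage was subtracted first, and every same-numbered pair was positive. Late 1C libraries 1, 4, 5 and 7 correlated best with the early 2C library of their number. Early 2C libraries 1 and 5 did so in the other direction. The numbers were not taken as pairs because 1 pair was under 0.1, and not every library correlated best with its own number. Some values recurred by number in both embryo sets. Early 2C library 5 had the lowest mean over the genes called lower in mCherry embryos, at -1.27 (uninjected) and -1.30 (mCherry). Late 1C library 3 had the lowest Obox sum in both, 5877 and 8084 CPM. Leaving the numbers unpaired does not exclude a litter or day shared by number, which the labels do not give and which was not tested.

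Lower members in the fit of all 9 groups were 10 for ribosomal proteins, 6 for splicing factors, 3 for translation initiation factors, 2 for the nuclear pore, 6 for the proteasome, 5 for oxidative phosphorylation, 3 for maternal oocyte transcripts, 6 for DNA replication and 2 for DNA methylation. With no filter they were 3 for the nuclear pore, 7 for oxidative phosphorylation, 7 for maternal oocyte transcripts, 3 for decay and storage and 3 for DNA methylation. With the replicate block they were 9 for the nuclear pore, 19 for oxidative phosphorylation, 11 for decay and storage and 11 for histones. Without the libraries numbered 4 and 5 they were 6 for RNA polymerase II, 3 for the nuclear pore, 7 for the proteasome, 3 for oxidative phosphorylation, 5 for maternal oocyte transcripts and 1 for DNA methylation. The cause was not tested.

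Without the libraries numbered 4 and 5 the Zscan4, Usp17l and Eif1ad sums differed by 3.17, 2.49 and 3.76 (exact permutation, adjusted p 0.0571 each, a size at which 4 against 4 cannot pass). The Pramel difference of 0.27 had an adjusted p of 0.0469 by exact permutation within the replicate block. Leaving out 1 library gave 391 to 648 higher and 776 to 1069 lower genes in uninjected embryos (391 without late 1C library 7) and 225 to 375 and 462 to 737 in mCherry embryos. Lower members ranged from 6 to 10 for RNA polymerase II (6 without late 1C library 4), 3 to 6 for the nuclear pore, 7 to 14 for oxidative phosphorylation (7 without late 1C library 3), 5 to 11 for maternal oocyte transcripts, 3 to 7 for decay and storage (3 without late 1C library 7), 4 to 8 for histones (8 without late 1C library 5) and 3 to 7 for DNA methylation (3 without late 1C library 4). The Tdpoz difference ranged from 1.12 to 1.94 and changed its call without early 2C library 6.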
